A study of Mus musculus with 4 samples.

Results

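Medullary thymic epithelial cells (mTECs) display proteins of distant organs to developing T cells, and 10 genes for secreted proteins of milk, saliva and nasal mucus were followed here in mTECs of female and male mice. The genes were chosen by name, and each of the 10 had a row among the 23366 gene symbols counted. They comprise the 5 caseins (Csn1s1, Csn1s2a, Csn1s2b, Csn2 and Csn3), the whey proteins Wap and Lalba, the milk and gland secretory protein Wfdc18, the salivary protein Spt1 and the odorant-binding protein Obp1a. Cells were sorted from untreated, wild-type C57BL/6 mice aged 6 to 8 weeks as viable, CD45-negative, MHCII-positive and low for Ly51. RNA was pooled from 10 mice per replicate, with 2 pools of females and 2 pools of males, and the poly(A) libraries were read in 50-base reads. The values therefore describe pools, not single animals or single cells.

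In mTECs, the transcription regulator Aire switches on many genes that other organs use, called tissue-specific antigens (TSAs), so that T cells reactive to them can be deleted or diverted in the thymus. Caseins bind calcium phosphate and assemble into the micelles of milk, and in the mammary gland their transcription depends on prolactin acting through JAK2 and STAT5. The study treats Spt1 and Obp1a as Aire-dependent TSAs and Csn2 as an Aire-independent one, and asks whether TSA transcripts differ between the sexes.

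The gene counts of a library added up to 3508921 and 1976272 (female pools 1 and 2) and to 7103627 and 3344471 (male pools 1 and 2). Levels are given as normalized CPM, reads per 1000000 reads counted after TMM scaling for library composition, and as RPKM, the same per kilobase of annotated exon. The TMM factors were 1.05 and 1.03 in female pools 1 and 2, and 1.18 and 0.780 in male pools 1 and 2, so that the male pools were the farthest apart. This scaling moves the log2 ratio of pool 2 to pool 1 by 0.60 in males and by 0.03 in females for every gene, relative to library size alone, and such ratios are given under both where that matters. The limit that a count of 0 leaves, 3 counts, corresponds to 0.815 and 1.48 normalized CPM in the female and to 0.358 and 1.16 in the male pools, with pool 1 first. These limits and all intervals on counts cover counting error only.

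The labelled cell type was checked with 12 mTEC markers, of which 11 had over 3 counts in every pool. Ccl21a, a chemokine of mTECs low in MHCII that has near-identical gene copies, had 0 counts in all 4 pools. Aire had 71, 64, 165 and 75 counts in female pool 1, female pool 2, male pool 1 and male pool 2, or 19.3, 31.7, 19.7 and 28.9 normalized CPM. B cell markers were present as well, although the sort was negative for CD45, and 7 of 8 had over 3 counts in every pool. The 8 B cell genes summed to 4473, 2921, 3673 and 2465 normalized CPM in the same order of pools, led by Cd79a. The 9 epithelial genes, led by Spint2, summed to 378, 653, 413 and 624. In RNA from whole pools, fewer cells of a type and less RNA per cell cannot be told apart.

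The RefSeq promoters of Csn2 and its neighbour Csn1s1 are shown because these adjacent caseins carried the same motif and lay at opposite ends of the range of casein counts, and that of Wfdc18 because it was the most abundant of the 10 genes. Each is the 250 bases before the start of transcription in GRCm38.p6, written 5′ to 3′ on the strand of the gene. Capitals mark TTCNNNGAA, the kind of site that STAT5 binds, in Csn2 (chr5:87699426-87699675, minus strand) and Csn1s1 (chr5:87665958-87666207, plus strand), and TATAAA in Wfdc18 (chr11:83708754-83709003, plus strand).
Csn2: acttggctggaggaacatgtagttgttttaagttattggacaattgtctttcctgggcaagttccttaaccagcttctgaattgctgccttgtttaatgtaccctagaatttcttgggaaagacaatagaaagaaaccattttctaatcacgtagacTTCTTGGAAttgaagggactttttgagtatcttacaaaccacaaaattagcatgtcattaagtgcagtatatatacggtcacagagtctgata
Csn1s1: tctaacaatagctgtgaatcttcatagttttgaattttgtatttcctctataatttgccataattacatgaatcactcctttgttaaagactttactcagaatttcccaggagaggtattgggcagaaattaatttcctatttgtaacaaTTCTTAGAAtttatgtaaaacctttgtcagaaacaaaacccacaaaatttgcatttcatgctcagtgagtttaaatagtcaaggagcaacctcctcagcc
Wfdc18: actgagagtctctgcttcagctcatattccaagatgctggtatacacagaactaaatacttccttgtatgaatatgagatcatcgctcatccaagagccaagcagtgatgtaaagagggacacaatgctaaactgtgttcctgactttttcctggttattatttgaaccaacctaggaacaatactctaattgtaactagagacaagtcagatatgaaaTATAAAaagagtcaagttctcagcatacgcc

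Searched on both strands, TTCNNNGAA was found 93 bases before the start of Csn2 and 100 bases before that of Csn1s1, and in none of the other 6 promoters that the RefSeq table held for these genes (Csn1s2a, Wap, Wfdc18, Lalba, Obp1a and Spt1, the last under its newer symbol Mucl2). It was present in 7.02% of all 32851 promoters of this length. TATAAA, which does not overlap it, was found in Wfdc18 and Obp1a, 31 and 30 bases before their starts, and in 12.4% of all promoters. These matches describe the letters in these windows and are not evidence of binding.

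Transcripts of the 10 genes were very unequal. Only Csn2 and Wfdc18 had over 3 counts in every pool, and they held 2490 of the 2538 counts of the 10 genes, or 98.1%. Csn1s2a and Wap had over 3 counts in at least 1 pool, Csn1s1, Csn1s2b, Csn3, Lalba and Obp1a had at most 1 or 2 counts in any pool, and Spt1 had none. Thus 4 of 10 genes (40%) were above 3 counts in at least 1 pool, beside 61.1% of all 23366 genes.

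**Figure D1:**
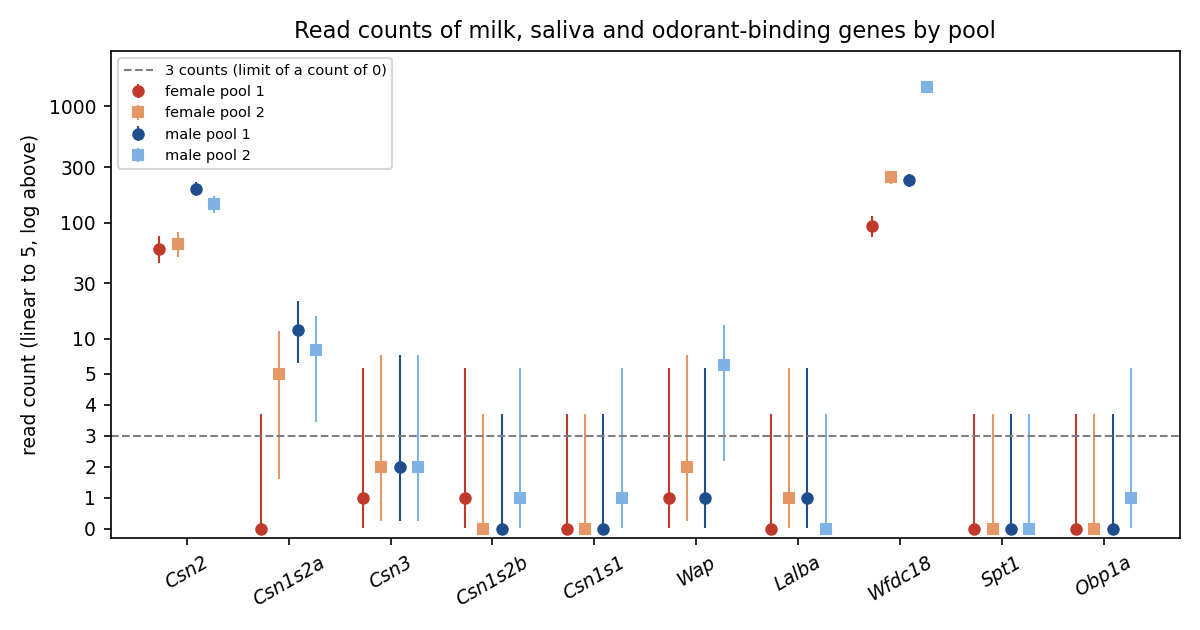
Read counts of the 10 genes (x axis) in each pool (y axis, linear up to 5 counts and logarithmic above), with exact Poisson 95% intervals as bars and a dashed line at 3 counts. Csn2 and Wfdc18 lie between 59 and 1457 counts in the 4 pools, whereas the other 8 genes do not exceed 12 counts in any pool.

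Among the caseins, Csn2 was the main transcript. Csn2, which encodes beta-casein, lies on chromosome 5 of NCBIM37 (the assembly also called mm9), from 88121647 to 88128446 on the minus strand, with 9 exons of 1122 bases. Its counts were 59 and 65 in females and 194 and 144 in males, with pool 1 first. Scaled for depth and composition, these were 16.04, 32.2, 23.2 and 55.4 normalized CPM. The ranges of the sexes overlapped, since female pool 2 lay above male pool 1, and male pool 2 was the highest. Exact Poisson 95% intervals ran from 12.2 to 20.7 in female pool 1, from 24.8 to 41.0 in female pool 2, from 20.03 to 26.7 in male pool 1 and from 46.8 to 65.3 in male pool 2, so pools of the same sex differed by more than counting error. Per length, Csn2 was at 21.5 ± 10.2 RPKM in female and 35.0 ± 20.3 in male pools (SD, n = 2 per sex). By its mean RPKM it ranked 1989th of the 21847 genes with a known exonic length, within the top 9.10%. Per length it was also more abundant than Aire itself in every pool, at 2.83, 3.46, 4.01 and 6.55 times the RPKM of Aire in female pools 1 and 2 and male pools 1 and 2. These ratios depend on the exonic length taken for Aire, for which the longest transcript was not tried. In counts, Aire had 71, 64, 165 and 75 in the same order of pools, so it was above Csn2 in female pool 1.

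Csn1s2a, which encodes a calcium-sensitive alpha-s2-type casein (chromosome 5, 88203592 to 88217822, plus strand, 14 exons), was the only other casein above 3 counts. It had 0, 5, 12 and 8 counts in female pools 1 and 2 and male pools 1 and 2. Where it had counts, its normalized CPM was 2.47 (female pool 2), 1.43 (male pool 1) and 3.08 (male pool 2), and the limit for female pool 1 was 0.815. The interval of female pool 2, from 0.803 to 5.77, and that of male pool 1, from 0.741 to 2.50, include that limit, and that of male pool 2 began above it, at 1.33. In the 3 pools with counts, the RPKM of Csn2 was 10.7, 13.3 and 14.8 times that of Csn1s2a.

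The other caseins were at or under 3 counts in every pool. Csn3 encodes kappa-casein, which stabilizes the micelle from its surface (88354604 to 88361690, plus strand), and had 1, 2, 2 and 2 counts. Csn1s2b (88237107 to 88253451, plus strand) had 1 count in female pool 1 and 1 in male pool 2. Csn1s1 encodes alpha-s1-casein (88095249 to 88111598, plus strand), and its only count was in male pool 2. In male pool 1, the deepest library, the limit of 3 counts for Csn1s1 is 0.253 RPKM, where Csn2 had 20.7 RPKM. Csn2 made up 92.3% to 96.7% of the casein counts in 3 pools and 90.3% in female pool 2.

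The caseins form a cluster of 266 kb, in which Csn1s1 and Csn2 are separated by 10.0 kb and point towards each other. The counts did not follow this proximity. Between Csn1s1 and Csn3 lie also 4930432K09Rik and Gm7337, with 0 counts in all pools, and Odam, which encodes a protein of the tooth surface, with 3 counts over the 4 pools. On the upstream side the sulfotransferase genes Sult1d1 and Sult1e1 had 2 and 5 counts, all in male pool 1. On the downstream side Cabs1 had 1 count and Smr3a, a gene of the submandibular gland, had 3. No neighbour came near the 462 counts of Csn2, and next after it stood Csn1s2a with 25.

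**Figure D2:**
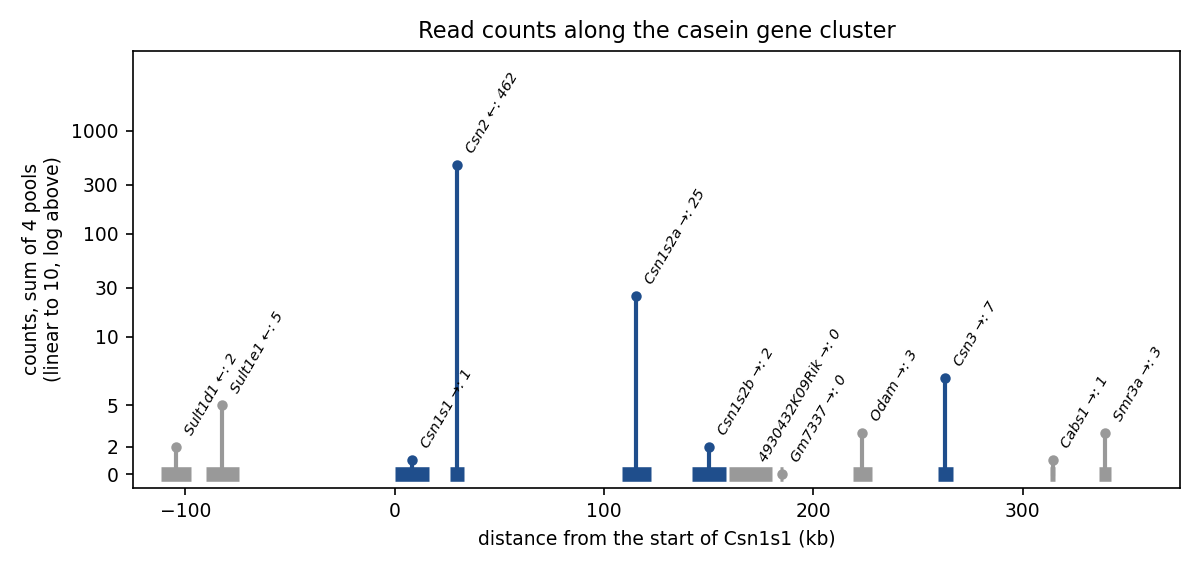
Counts summed over the 4 pools (y axis, linear up to 10 and logarithmic above) for genes along the casein cluster, by distance from the start of Csn1s1 in kb (x axis), with bars on the baseline for gene bodies, arrows for strand, caseins in blue and other genes in grey. Csn2 stands at 462 counts and Csn1s2a at 25, and the other genes lie between 0 and 7.

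To see whether near-identical copies could have taken reads away, every 50-base window of the longest transcript was matched to NCBIM37 with up to 2 mismatches. No window of Csn1s1, Csn1s2a, Csn2, Wap or Lalba matched elsewhere, and 1 of 1619 did for Csn1s2b. For Csn3 the share was 7.76%, in sequence repeated on 21 chromosomes. It was 9.45% for Wfdc18, with all matches on chromosome 11, some of them inside the gene body of its neighbour Wfdc17, named Gm11428 in the annotation. For Obp1a it was 22.0%, with all matches on the X chromosome, where Gm5938 is annotated. Reads from such windows can align to several places, and reads without a unique alignment were not counted on genes. The windows were cut from joined exons, so a window across an exon junction could not match a copy that has introns. Csn1s1 has 34 exons in 1415 bases and Csn1s2a 14 in 920, so many of their windows cross a junction. For these genes the search cannot decide whether such copies exist.

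The whey proteins were near the limit of detection. Wap, the main whey protein of rodent milk (chromosome 11, 6531490 to 6538652, minus strand), had 1, 2, 1 and 6 counts in female pools 1 and 2 and male pools 1 and 2. Only male pool 2 exceeded 3 counts, and its 2.31 normalized CPM (95% interval 0.848 to 5.03) overlapped the intervals of both female pools. The interval of male pool 1 ended lower, at 0.666, but overlapped it with library size as the only scaling. Lalba, the alpha-lactalbumin that directs lactose synthesis (chromosome 15, 98310831 to 98313114, minus strand), had 0, 1, 1 and 0 counts. The 0 counts allow up to 1.11 RPKM in female pool 1 and 1.58 RPKM in male pool 2, and the 95% intervals of the single counts ended at 2.76 normalized CPM in female pool 2 and 0.666 in male pool 1.

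Wfdc18 was the most abundant of the 10 genes per length, at 1.45, 3.48, 1.10 and 9.31 times the RPKM of Csn2 in female pools 1 and 2 and male pools 1 and 2. It encodes a small secreted protein with a WAP-type four-disulfide core, also known as Expi or WDNM1, and lies on chromosome 11, 83522517 to 83524850, plus strand. Female pools 1 and 2 held 93 and 246 of its counts, and male pools 1 and 2 held 232 and 1457. These were 25.3, 122, 27.7 and 561 normalized CPM. Both pools numbered 1 were low and both pools numbered 2 were high, and male pool 2 was above every other pool. The ratio of pool 2 to pool 1 was 4.82 in females and 20.2 in males, against 2.01 and 2.39 for Csn2. With library size as the only scaling the male ratios were smaller, at 13.3 for Wfdc18 and 1.58 for Csn2. Per length, Wfdc18 had 60.3 ± 55.9 RPKM in female and 241 ± 309 in male pools (SD, n = 2 per sex), an SD nearly as large as the mean or larger. By mean RPKM it ranked 513th of 21847 genes, a rank that rested on male pool 2. Without that pool the mean was 47.7 in place of 151 RPKM and the rank 1259th, a comparison chosen after seeing the data.

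The gene next to it, Wfdc17, encodes a related protein made by macrophages and ends 2.75 kb before Wfdc18 starts on the same strand. Wfdc17 had 35.6, 87.6, 23.9 and 425 normalized CPM in female pools 1 and 2 and male pools 1 and 2. It thus had the same high and low pools as Wfdc18. Its own 50-base windows had no match elsewhere (0 of 484), with the same limit at exon junctions. Markers of dendritic cells and macrophages were present at high levels, and their sum was also higher in the pools numbered 2. The 9 markers counted under their listed symbols, of 10 listed, all had over 3 counts in every pool and summed to 2215, 3847, 1642 and 4977 normalized CPM. The most abundant of them, Lyz2, which encodes the lysozyme of myeloid cells, had 1161, 2397, 841 and 3327 normalized CPM. C1qa, a complement gene of macrophages, had 164, 475, 107 and 584. Not every marker ran this way. Flt3 had 412, 317, 264 and 338, and was lower in pool 2 of females. Siglech, chosen after its values were seen, had 100, 70.8, 101 and 70.1, and was lower in pool 2 of both sexes. Of the 9 dendritic cell and macrophage genes, 6 were higher and 1 was lower in pool 2 of both sexes. Higher there were also 8 of 9 epithelial and 8 of 12 mTEC genes, beside 31.2% of all 10865 tested genes. By contrast, 7 of 8 B cell genes were lower, and the share of all genes that were lower was not computed. With library size only these numbers of markers were 6 of 9, 5 of 9, 5 of 12 and 7 of 8. Of all tested genes 18.3% were then higher, and 2 dendritic cell and macrophage genes were lower. The summed epithelial genes were then at 487 and 484 CPM in male pools 1 and 2. The part of any of these cells in the levels of Wfdc18 or Csn2 was not tested.

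**Figure D3:**
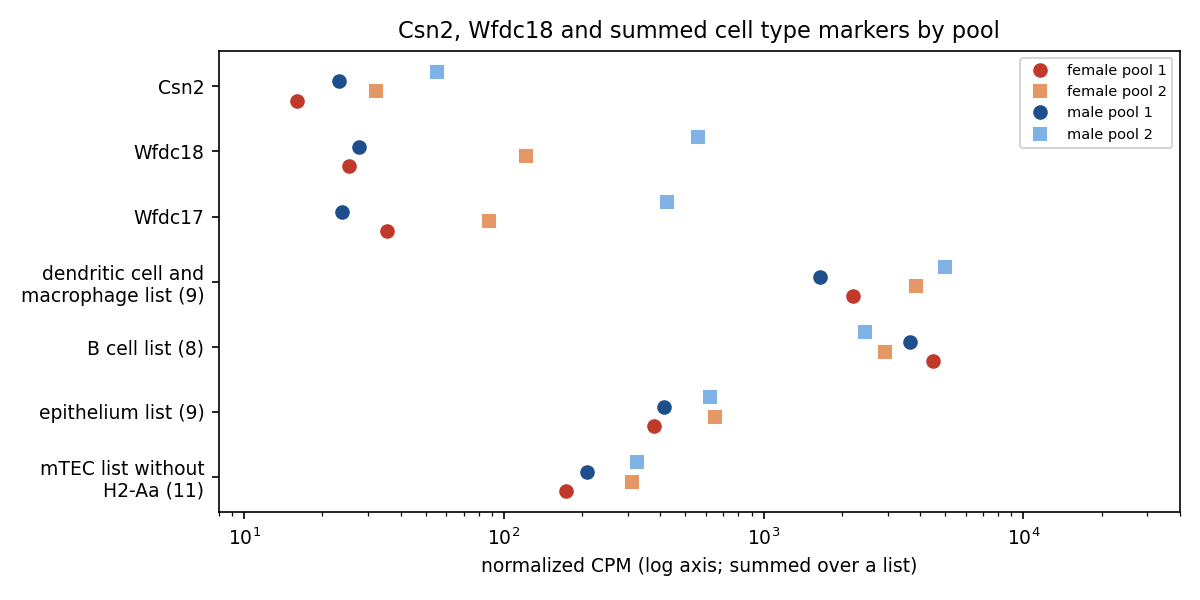
Normalized CPM (x axis, log scale) of Csn2, Wfdc18 and Wfdc17 and of cell type marker lists summed over their genes (y axis, number of genes in parentheses), with 1 point per pool. Wfdc18 and Wfdc17 span 25.3 to 561 and 23.9 to 425, with male pool 2 highest, and the B cell list runs the other way, highest in female pool 1 at 4473.

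Csn2 and Wfdc18 had a higher level in pool 2, in females as well as in males, with 95% intervals that did not overlap those of pool 1. Csn1s2a, Wap and Csn3 were also higher in pool 2 of each sex, but on few counts, and their intervals overlapped except for Wap in males after TMM scaling, which passed 3 counts only in male pool 2. With library size only the intervals of Wap overlapped too, ending at 0.784 CPM in male pool 1 and beginning at 0.658 in male pool 2, and those of Csn2 and Wfdc18 remained apart. These were 5 of the 9 genes with any count (55.6%), beside 28.6% of all 17866 genes with a count. With library size only the same 5 genes were higher, beside 19.0% of genes with a count. The labels give a pool number but no day, animal or batch for it. With counts of 12 or less for 3 of the 5 genes, this describes the pools and was not tested.

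Spt1 and Obp1a, the TSAs of saliva and of nasal mucus, gave nearly no reads. Obp1a encodes an odorant-binding lipocalin (chromosome X, 75330844 to 75336713, minus strand), and its single count was in male pool 2. The 0 counts of the other pools allow up to 1.08 and 1.96 RPKM in female pools 1 and 2 and 0.473 RPKM in male pool 1, and the 95% interval of the single count ended at 2.15 normalized CPM. Spt1, listed as Mucl2 in RefSeq, had 0 counts in all 4 pools, and for it this count says less than for the other genes. The region of its start in GRCm38.p6 (chr15:103899263-103899562, minus strand) was cut into 12 pieces of 25 bases and searched in NCBIM37. None was found on chromosome 15, 7 were found on 3 contigs that are not placed on a chromosome, and 1 was found on another chromosome. The same search placed 12 of 12 pieces of the Csn2 start on chromosome 5. Spt1 is not among the genes of the NCBIM37 annotation used here, and where the authors' annotation placed it is not given in the sources used here. Its 0 counts are therefore listed without a limit per length.

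Male and female pools were compared over all genes with edgeR's quasi-likelihood test, and neither Csn2 nor Wfdc18, the 2 genes of the 10 that passed the filter on low counts, passed this test. For Csn2 the pools averaged 24.1 ± 11.4 (females) and 39.3 ± 22.8 (males) normalized CPM (SD, n = 2 per sex), and the fitted log2 ratio of males to females was 0.71 (standard error 0.53). For Wfdc18 they averaged 73.5 ± 68.2 and 294 ± 377, with a log2 ratio of 2.01 (standard error 1.29). After Benjamini-Hochberg adjustment over 10865 genes the edgeR quasi-likelihood p was 1.0 for each, and the unadjusted p was 0.229 for Csn2 and 0.164 for Wfdc18. The same test called 0 of 10865 genes (0.0%) at an adjusted p of 0.05, and 48 (0.442%) had an unadjusted p under 0.05, of which 0 were among the 10 genes. DESeq2 called 3 genes, of which 0 were among the 10. With no filter on low counts Wfdc18 passed (adjusted p by edgeR of 0.0347), in a fit that called 0.146% of 17866 genes. The values of both genes rested on which male pool was used. Without male pool 2 the log2 fold changes were -0.01 for Csn2 and -1.37 for Wfdc18, and neither passed in a fit that called 0.613% of all genes. Without male pool 1 they were 1.23 and 2.95, and both genes then passed the threshold (adjusted p by edgeR of 0.0305 and 1.52e-06), in a fit that called 5.72% of all genes and took the spread of the lone male pool from the females. A p that misses the threshold in 2 against 2 pools does not show that levels were the same.

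**Figure D4:**
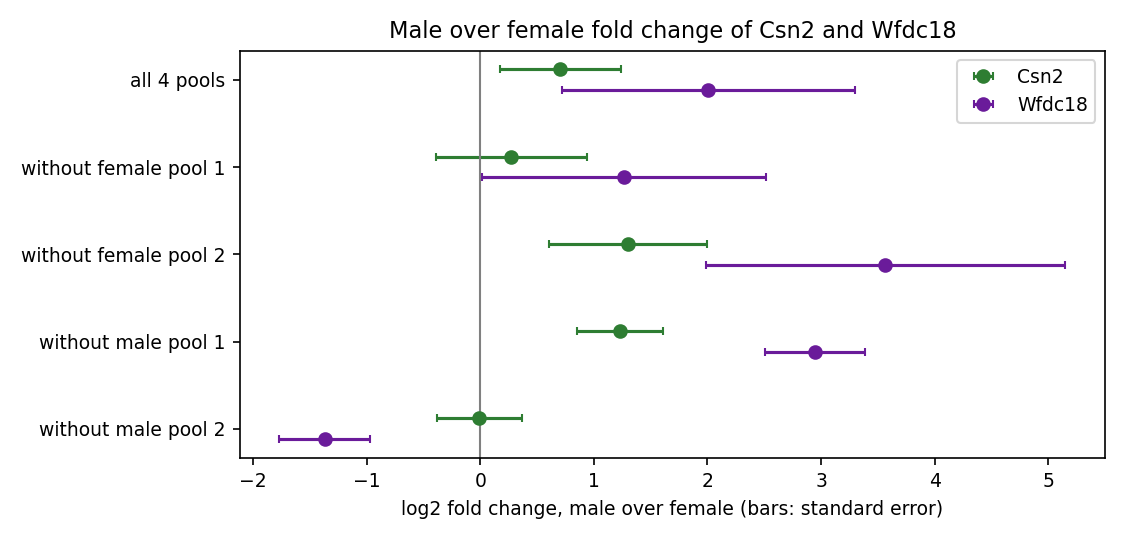
Log2 fold change of male over female (x axis; points are edgeR estimates and bars are standard errors) for Csn2 and Wfdc18 with all 4 pools and with each pool left out (y axis). Wfdc18 lies at -1.37 when male pool 2 is left out and at 3.57 when female pool 2 is left out, and Csn2 at -0.01 and 1.30 in the same fits.

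Other genes of milk, saliva and related secretions were read from lists. Of 13 further milk genes, 9 had over 3 counts in some pool, 7 were tested and 0 passed an adjusted p of 0.05 in either direction (median log2 fold change 0.16, against 0.03 over all tested genes). The most abundant were Plin2, which coats lipid droplets, at 123 ± 49.2 and 122 ± 52.6 normalized CPM (females and males, SD, n = 2 pools per sex), Spp1, the secreted phosphoprotein osteopontin, and Mfge8, a milk fat globule protein that also bridges phagocytes to dying cells. Spp1 had 83.9 ± 11.5 in females and 70.2 ± 19.9 in males, and Mfge8 had 76.8 ± 19.4 and 61.9 ± 0.895. These genes have roles outside the mammary gland, and Btn1a1, the butyrophilin of the milk fat globule, was chosen after its values were seen and had 0 counts in all pools.

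The regulators that drive milk genes in the breast were unevenly present. Of 10 regulators, 8 had over 3 counts in some pool, 5 were tested and 0 passed in either direction (median log2 fold change 0.01). Jak2 was at 126 ± 15.9 and 111 ± 6.25 normalized CPM, Stat5b at 58.4 ± 12.7 and 53.8 ± 36.4, and Stat5a at 47.97 ± 9.05 and 54.8 ± 12.6 (females and males, SD, n = 2 pools per sex). All are also active in blood cells. Prlr, the prolactin receptor, and Elf5, a factor of the alveolar epithelium, were chosen after their values were seen. Prlr had 8, 4, 15 and 6 counts in female pools 1 and 2 and male pools 1 and 2, and Elf5 had 1 count, in male pool 2.

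Of 17 other genes with a WAP-type core, 6 had over 3 counts in some pool, 3 were tested and 0 passed in either direction, with a median log2 fold change of 1.28. The direction rested on male pool 2, since the median was -0.38 without it. Without male pool 1 it was 2.17, and all 3 genes passed, with adjusted p by edgeR of 6.73e-07 for Wfdc17, 0.000653 for Wfdc2 and 0.00352 for Slpi, in the fit that called 5.72% of all genes and in which the lone male pool was assumed to vary like the females. Besides Wfdc17, the tested genes were Slpi, the secretory leukocyte protease inhibitor, at 60.1, 47.0, 47.4 and 156 normalized CPM in female pools 1 and 2 and male pools 1 and 2, and Wfdc2, an epithelial secretory gene, at 2.17, 18.8, 7.29 and 42.4. Male pool 2 was the highest for each of the 3 genes, but the share of all genes highest in that pool was not computed. Wfdc2 was, like Csn2 and Wfdc18, higher in pool 2 of both sexes, whereas Slpi was not.

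Of 21 further saliva genes in the table, 9 had over 3 counts in some pool, 3 were tested and 0 passed in either direction (median log2 fold change 0.12). Klk1, a tissue kallikrein, had 75.6, 50.5, 52.9 and 71.2 normalized CPM in female pools 1 and 2 and male pools 1 and 2. Lpo, the lactoperoxidase of milk and saliva, had 9.24, 20.3, 12.9 and 18.9, and Bpifa1, an airway and salivary secretory protein, had 3.26, 14.4, 5.73 and 14.2. Bpifa1 was higher in pool 2 of both sexes under both scalings, Lpo so after TMM scaling but not in males with library size only (15.2 and 14.7 CPM), and Klk1 under neither. Of 20 lipocalins and odorant-binding proteins in the table, 6 had over 3 counts in some pool, 2 were tested and 0 passed in either direction (median log2 fold change 1.41). Lcn2, a lipocalin of neutrophil granules and inflamed epithelium, had 1.63, 4.45, 14.7 and 10.01 normalized CPM, so that its male and female pools did not overlap, as was the case for 21.2% of all tested genes. Its log2 fold change was 2.13 (standard error 0.60), and it did not pass the adjusted threshold (adjusted p = 1.0 by edgeR, unadjusted p = 0.00981). Without male pool 2 it passed, with a log2 fold change of 2.41 (adjusted p by edgeR of 0.0033), in the fit with a lone male pool that called 0.613% of all genes, and over the 4 fits with a pool left out its log2 fold change ran from 1.48 to 2.93. It was the only tested gene of the 5 lists with an unadjusted p under 0.05. Obp2a had 1, 7, 8 and 13 counts in the same order of pools, and Lcn11 had 3, 2, 4 and 6, so the relative Obp2a gave more reads than the single one of Obp1a.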

How the data were processed

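The authors deposited raw counts of reads per gene, for which the study names Trimmomatic for trimming, TopHat2 for alignment (mm9) and HTSeq-count for counting. Versions, annotation and strand setting are not given in the sources used here, so reads of overlapping antisense genes cannot be told apart. The 5 rows not assigned to a gene (no feature, ambiguous, low quality, not aligned and not uniquely aligned) stayed out of library sizes. They held 66.9% to 70.2% of the entries summed over all rows of a pool. Males were compared with females with edgeR 4.0.16 (quasi-likelihood, TMM, filterByExpr with a minimum count of 10, prior count 0.125, Benjamini-Hochberg at 0.05, two-sided) in R 4.3.3, with no term besides sex. A self-test on simulated counts was run. A standard error is the fold change (log2) over the square root of its F. Exonic lengths and coordinates came from GENCODE M1 on NCBIM37, matched for 21847 symbols (93.5%), and promoters from RefSeq on GRCm38.p6. Each pool is RNA of 10 mice, and p-values measure only the spread between these pools. Alternatives were other normalizations, filters, tests (DESeq2 1.42.0 included), prior counts and lengths, a replicate block, thinned pools and each pool left out. The 10 genes, the lists and the tests were chosen with earlier results of these data known. Genes named from lists are those among the 3 most abundant of each, Aire, markers at 0 in every pool, the neighbours of the caseins and any gene past the threshold. Others are said to be chosen after their values were seen, and 1 gene near Wfdc18 is not reported here.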

Additional observations from a re-analysis of the deposited data

How the results depend on the processing

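With 2 pools per sex, depth and the spread between pools limit what can be called. The number of the 10 genes past the adjusted threshold was 0, and 1 (Wfdc18, log2 fold change 1.99, adjusted p by edgeR of 0.0347) with no filter. With a replicate left out it ran from 0 to 2, with 2 without male replicate 1. Over 10 settings with all pools, Csn2 ran from 0.51 to 0.71 with adjusted p from 0.999 to 1.0, and Wfdc18 from 1.21 to 2.01 with adjusted p from 0.0347 to 1.0. With a replicate left out, Csn2 ran from -0.0089 to 1.30 and Wfdc18 from -1.37 to 3.57, and both turned without male replicate 2. Over all genes the count was 0 in the fit reported above, 26 with no filter, 5 under library size only, 3 with DESeq2, 8 with edgeR's exact test, 8 with its likelihood ratio test and 17 with the replicate block, and ran from 0 to 646 with a replicate left out (646 without male replicate 1 and 70 without male replicate 2). For the genes of the related lists it was 0 and ran from 0 to 4 with a replicate left out, with 4 (Muc1, Slpi, Wfdc17 and Wfdc2) when male replicate 1 and 2 (Lcn2 and Ltf) when male replicate 2 was missing. List medians, an alternative chosen after seeing the data, ran with a replicate left out from -0.06 to 0.50 for milk, -0.31 to 0.41 for regulators, -0.38 to 2.68 for WAP-type, -0.37 to 0.79 for saliva and 0.56 to 3.08 for lipocalin genes. The cause was not tested.

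Both sexes have pools 1 and 2, but nothing ties a number to animals or a day, and there are only 2 pairs. Over genes, the male and the female deviations by pool number had r = 0.52, and the replicate block called 0 of the 10 genes, with unadjusted p of 0.0402 for Csn2 and 0.0072 for Wfdc18 by edgeR. Counting genes with at least 1 count in place of over 3 gave 9 of 10, thinning to the smallest total gave a median of 4 (3 to 4 over 20 draws), and leaving out a replicate gave 3 to 4. With library size only, levels per length of Csn2, Wfdc18, Csn1s2a and Wap moved by less than the SD between pools. The longest transcript could not move those of Csn2 and Csn1s2a, since it equals their exonic length. It moved those of Wap and Wfdc18 by less than the SD. Wfdc18 then had 80.2 RPKM in females and 321 in males, where the SDs were 55.9 and 309.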

Other observations

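Counted genes near Wfdc18 were examined after its values had been seen. Wfdc17, Ccl4 and Ccl3 lie within 61.2 kb before the start of Wfdc18, and 1100001G20Rik, another small gene with a WAP-type core now called Wfdc21, starts 37.9 kb after it. Ccl4 and Ccl3, chemokines of activated myeloid and lymphoid cells, had ratios of pool 2 to pool 1 of 1.51 and 1.30 in females and 8.03 and 5.20 in males, by normalized CPM. 1100001G20Rik had 4.08, 6.43, 2.63 and 22.7 normalized CPM in female pools 1 and 2 and male pools 1 and 2, with ratios of 1.58 and 8.64. Male pool 2 was thus the highest pool for Ccl3, Ccl4, Wfdc17, Wfdc18 and 1100001G20Rik, 5 of the 6 genes described, but the share of all genes highest in that pool was not computed. The other, Heatr6, starts 44.7 kb after Wfdc18 starts and ran from 20.3 to 27.7 normalized CPM and was highest in female pool 1. With library size only, the male ratios were 5.30, 3.43 and 5.70 for Ccl4, Ccl3 and 1100001G20Rik, and Heatr6 was lower in pool 2 of both sexes. None of the 6 genes passed the adjusted threshold between the sexes by edgeR's quasi-likelihood test.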
